A study of Mus musculus with 9 samples.

Results

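Replication-dependent histone mRNAs were examined in whole livers of mice treated with an antisense oligonucleotide (ASO) against apoC-III. The genes were chosen by name, as every gene whose symbol begins with Hist1h, Hist2h, Hist3h or Hist4h, leaving out symbols marked as pseudogenes with -ps. This gave 69 of the 51912 genes listed, of which 6 are named for histone H1, 20 for H2A, 18 for H2B, 12 for H3 and 13 for H4. The H2A genes include 2 annotated pseudogenes, Hist1h2aj and Hist1h2al, so 18 encode H2A. All 9 mice were Apoe-/-Ndst1 f/f Alb-Cre+, a genotype that lacks apoE everywhere and NDST1, a heparan sulfate sulfotransferase, in the hepatocytes in which the albumin promoter drives Cre. The apoC-III ASO group (n = 5) and the control ASO group (n = 4) each received 50 mg/kg/week for 8 weeks, and livers were taken from fasted animals. Each library came from a separate mouse, and the sex, the age and, for these mice, the diet were not given in the sources used here. RNA was depleted of ribosomal RNA before stranded single-end sequencing, and no step selected for poly(A) tails.

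A dividing cell has to package its new DNA, and the replication-dependent histone genes supply the protein for this during S phase. Their mRNAs are the known exception to polyadenylation: most end a few bases after a conserved stem-loop, which is bound by the stem-loop binding protein SLBP and cut with the help of the U7 small nuclear RNA. Nondividing cells, such as most adult hepatocytes, draw on replication-independent variants, for example H3.3, whose mRNAs are polyadenylated, and some genes of the replication-dependent clusters can also give polyadenylated transcripts. Because no poly(A) step was used, both forms could be measured here. The question was how these genes are expressed in this liver and whether they differed between the ASO groups.

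The stem-loop is shown first because it defines these mRNAs. Transcript models of GENCODE M21 (build GRCm38) held a 16-base stem-loop in 46 of the 69 genes. The last match along a model was taken, and its place was not checked against the end of the coding sequence. The 6 bases of each arm pair with one another around a loop of 4 bases. In the lines that follow, written as DNA, the capitals mark the stem-loop and the lower case letters the bases on either side.
Hist1h1e: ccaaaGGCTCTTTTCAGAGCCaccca
Hist2h2aa1: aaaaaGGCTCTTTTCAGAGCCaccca
Hist1h2bp: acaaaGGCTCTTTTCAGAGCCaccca
Hist1h3b: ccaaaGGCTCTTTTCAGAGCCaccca
Hist1h3f: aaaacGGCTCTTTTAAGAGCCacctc
Hist1h4d: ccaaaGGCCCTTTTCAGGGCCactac
Hist1h4i: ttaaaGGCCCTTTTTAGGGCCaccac
Hist1h4b: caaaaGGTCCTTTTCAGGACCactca

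The first form was the most frequent and was found in 26 genes, all of them of H1, H2A, H2B or H3 type. None of those 26 encodes H4. The form of Hist1h3f was carried by 6 genes outside the H4 type. The 12 H4 genes with a stem-loop carried other letters in the arms, with the form of Hist1h4d in 7 genes, that of Hist1h4i in 2 and that of Hist1h4b in 2. A model without a match is not evidence of a gene without a stem-loop, since 11 of the 23 genes lacking a match have models that stop with the coding sequence. Models also differed in how far they run past the loop: 23 genes had at most 100 bases after it and 23 had more, up to 4884 bases.

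The deposited values were TPM (transcripts per 1000000), a length-corrected share of a library. In these livers the 7SL RNA genes took 64.0 to 83.6% of all TPM in the apoC-III ASO group and 66.3 to 77.6% in the control ASO group. What remained for nuclear protein-coding genes was 3.03 to 5.31% and 1.94 to 8.64%. The values given here, called rescaled TPM, are therefore TPM per 1000000 of nuclear protein-coding TPM, divided by a median-of-ratios factor for each liver. Control ASO replicate 4 stood apart, with the lowest protein-coding share of all livers (1.94%). Its scaling factor was 0.490 against 0.919 to 1.42 in the others. Where the values of all livers are listed it is the last control ASO value. Not every range that it sets is marked. TPM keeps no read depth, so the depth of each library is unknown and no counting interval can be given. Hepatocyte markers summed to 25945 to 56144 rescaled TPM over 8 genes, with Alb, the gene of serum albumin, at 15490.5 to 40201. Leukocyte markers summed to 64.6 to 164 over 10 genes, with Ptprc (CD45) at 5.71 to 19.0 and S100a8 listed at 0 in every liver. Endothelial markers summed to 63.7 to 102 over 5 genes, with Pecam1 at 7.17 to 14.5. In bulk tissue, fewer cells of a type and less RNA per cell cannot be told apart.

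Apoc3, the gene targeted by the ASO (chromosome 9, 46232933 to 46235636, minus strand, GRCm38), was at 383, 436, 338, 630 and 491 rescaled TPM in the apoC-III ASO livers and at 3411, 3208, 3523 and 4344 in the control ASO livers. The ranges did not meet, the mean was 87.4% lower with the apoC-III ASO, and an exact two-sided permutation test gave p = 0.00794, the smallest that 5 against 4 livers allow. Apoe was at 23.5 to 67.2 and Ndst1 at 4.86 to 11.7 over the 9 livers, and neither was called in the limma fit (adjusted p = 0.91 and 0.941). RNA from outside a deleted stretch is still counted, so these levels do not check the genotype.

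Together the 69 histone genes made up 0.133 to 0.214% of nuclear protein-coding TPM in the apoC-III ASO livers (mean 0.159%). The control ASO livers had 0.0688 to 0.129% (mean 0.102%), with the lowest value in control ASO replicate 4. These shares, taken before the scaling factors, did not overlap. On that scale most genes tested, 10593 of 12038, had a positive log2 fold change. Of the 12038 genes, 459 were higher without overlap of the groups and 12 were lower. After division by the factors the summed level of the 69 histone genes was 1601, 1088, 1170.3, 1334 and 1652 rescaled TPM in the apoC-III ASO livers. It was 1182, 1123, 1122 and 1404 in the control ASO livers. The means were 1369 ± 252 (SD, n = 5) and 1208 ± 134 (SD, n = 4), and the ranges overlapped, so whether the groups separate in the total depended on the factors. H4 mRNA was the largest class in every liver, at 41.0 to 61.7% of the histone total. H2B followed with 15.2 to 26.05% and H2A with 10.8 to 25.7%, H1 took 4.22 to 12.2%, and H3 was the smallest class in every liver with 2.55 to 5.09%. The H2A share includes the 2 annotated pseudogenes.

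**Figure D1:**
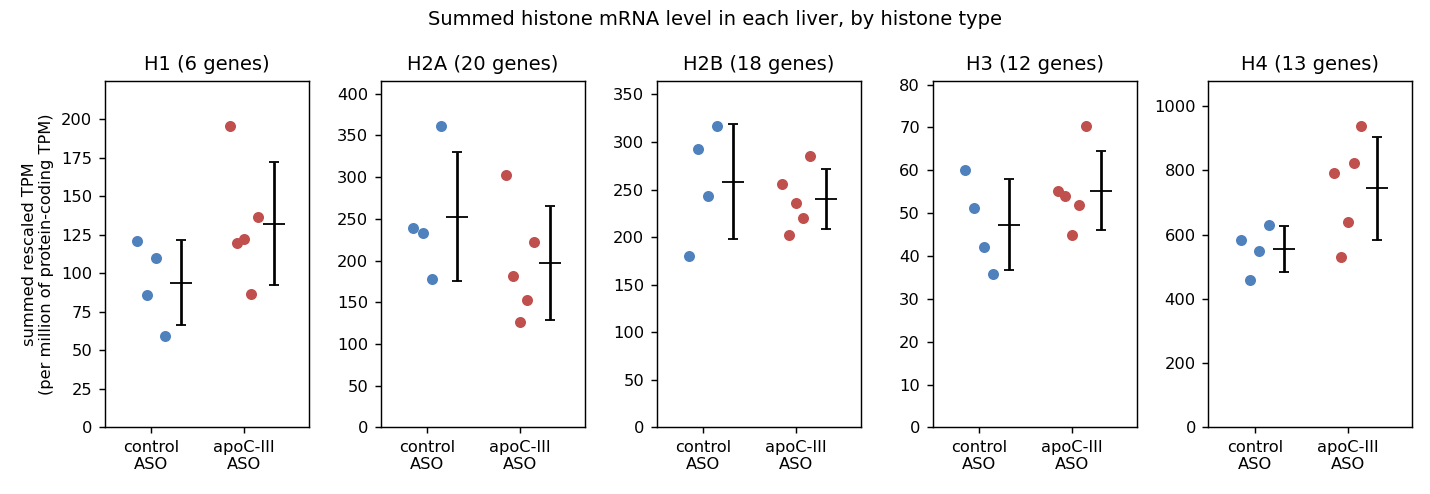
Summed rescaled TPM of each histone type in each liver, with control ASO livers in blue (n = 4) and apoC-III ASO livers in red (n = 5), and the mean ± SD in black beside the points. On this scale the 2 groups overlap for all 5 types, and H4 runs from 460.4 to 938 while H3 runs from 35.8 to 70.3.

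H1, the linker histone that binds DNA between nucleosomes, summed to 195, 119, 122, 86.5 and 137 rescaled TPM with the apoC-III ASO and to 121, 85.8, 109.8 and 59.3 with the control ASO. Control ASO replicate 4 held the lowest of these values. Hist1h1e (ENSMUSG00000051627, chromosome 13, 23620629 to 23622558, minus strand) gave 63.7 to 74.7% of the H1 level in every liver. Its own level was 126, 76.1, 87.8, 61.9 and 98.2 in the apoC-III ASO livers and 87.7, 64.1, 75.7 and 40.9 in the control ASO livers. These ranges overlapped, with a log2 fold change of 0.43 ± 0.27 (SE) and an adjusted p of 0.9 in limma. Hist1h1c ranged from 7.12 to 17.4, Hist1h1d from 4.29 to 22.4 and Hist1h1a from 2.65 to 20.3 over the 9 livers. Of the 31-base words in the H1 models, 65.3 to 100% occur in no other gene. The lowest share is that of Hist1h1e, whose model overlaps that of the H2B gene Hist1h2be and has 24.5% of its words in common with it. Hist1h1t, the linker histone of the testis, was at or below 0.889 and at 0 in 6 livers. H1f0, the linker histone of nondividing cells, which lies outside the clusters, was at 9.97 to 21.5, or 0.129 to 0.320 times the level of Hist1h1e.

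H2A summed to 303, 181, 127, 152 and 222 rescaled TPM with the apoC-III ASO and to 238, 233, 178 and 361 with the control ASO. These sums include 2 pseudogenes. Hist1h2al was at 93.5 in control ASO replicate 4 and at or below 7.31 in the other livers. Hist1h2aj was at 38.4 in apoC-III ASO replicate 1, at 42.2 in control ASO replicate 2 and at 0 elsewhere. Hist2h2aa2 (ENSMUSG00000063954, chromosome 3, 96239749 to 96240276, minus strand) and Hist2h2aa1 (ENSMUSG00000064220, chromosome 3, 96245497 to 96246082, plus strand) had the highest mean levels of the type, 59.3 and 43.5. The next were Hist1h2ah and Hist1h2af, whose means of 18.8 and 15.9 came from few livers. Hist1h2ah was at 122 in apoC-III ASO replicate 5 and 42.2 in control ASO replicate 3, at 5.06 in apoC-III ASO replicate 1, and at 0 in the other livers. Hist1h2af was at 119 in control ASO replicate 4 and at or below 7.38 elsewhere. Of the 20 H2A genes, 3 were above 0 in all livers and 17 were at 0 in at least 1.

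H2B, the partner of H2A in the nucleosome, summed to 256, 203, 236, 220.3 and 285 rescaled TPM with the apoC-III ASO and to 179.8, 293, 243 and 317 with the control ASO. It was the least variable type, with a coefficient of variation of 17.9% over the 9 livers. Hist1h2bc (ENSMUSG00000018102, chromosome 13, 23684199 to 23692908, plus strand) led it in mean level and was steady, at 76.9, 58.0, 75.7, 129 and 92.2 in the apoC-III ASO livers and 105, 75.6, 97.4 and 91.1 in the control ASO livers. The fold change was -0.14 ± 0.24 (SE) on the log2 scale, with an adjusted p of 0.973 in limma, and its sign turned with the scaling. The other leading genes varied more: Hist1h2bm ranged from 0 to 87.2, Hist1h2bp from 5.15 to 47.9 and Hist1h2bh from 0 to 60.1. Hist1h2ba, known as the H2B of the testis, was at 68.3, 3.53, 0, 0 and 13.4 in the apoC-III ASO livers and at 8.67, 49.4, 22.7 and 0 in the control ASO livers. Its model holds the coding sequence only, and 55.9% of its 31-base words occur in no other gene.

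H3 summed to 55.1, 54.1, 44.9, 51.9 and 70.3 rescaled TPM with the apoC-III ASO and to 60.1, 51.2, 42.1 and 35.8 with the control ASO. No H3 gene dominated, and the 4 with the highest means were Hist1h3h (0 to 30.9), Hist1h3a (0 to 20.1), Hist2h3b (1.91 to 13.2) and Hist1h3b (1.496 to 8.85). The replication-independent H3.3 genes were far above them. H3f3a and H3f3b together were at 194 to 289.6 rescaled TPM, which was 3.74 to 5.91 times the sum of the 12 H3 genes, and H3f3a alone exceeded that sum in every liver, by 2.54 to 4.18 times.

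H4 summed to 792, 530.4, 640.2, 824 and 938 rescaled TPM with the apoC-III ASO and to 582, 460.4, 549 and 631 with the control ASO. Before division by the factors the H4 sums did not overlap, at 751 to 1060 and 309 to 535, with the 309 in control ASO replicate 4. On that scale 459 of the 12038 genes tested were also higher without overlap, and 12 were lower. Hist1h4k (ENSMUSG00000064288, chromosome 13, 21750194 to 21750505, minus strand) had the highest mean, 179.7, with 41.5 to 333 among apoC-III ASO livers and 128 to 168 among control ASO livers. The fold change, on the log2 scale, was 0.16 ± 0.52 (SE), with an adjusted p of 0.99 in limma. Hist1h4d (ENSMUSG00000061482, chromosome 13, 23581598 to 23582735, plus strand) was at 70.0 to 181, Hist1h4n at 14.4 to 233 and Hist1h4h at 49.1 to 159. Hist1h4c was the steadiest gene of all 69, at 57.9 to 107 with a coefficient of variation of 20.8%. Although H3 and H4 enter the nucleosome in equal numbers, H4 mRNA was 8.99 to 17.6 times H3 mRNA in rescaled TPM. The model of Hist1h4k is only the coding sequence, and without that gene the ratio was 5.71 to 14.0. Other models of both types differ in length too, with 430 bases for Hist1h4n and 1138 for Hist1h4d. Among H3 genes Hist1h3h has 411 and Hist1h3f 1261. The part of model length and of shared words in this ratio was not tested.

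**Figure D2:**
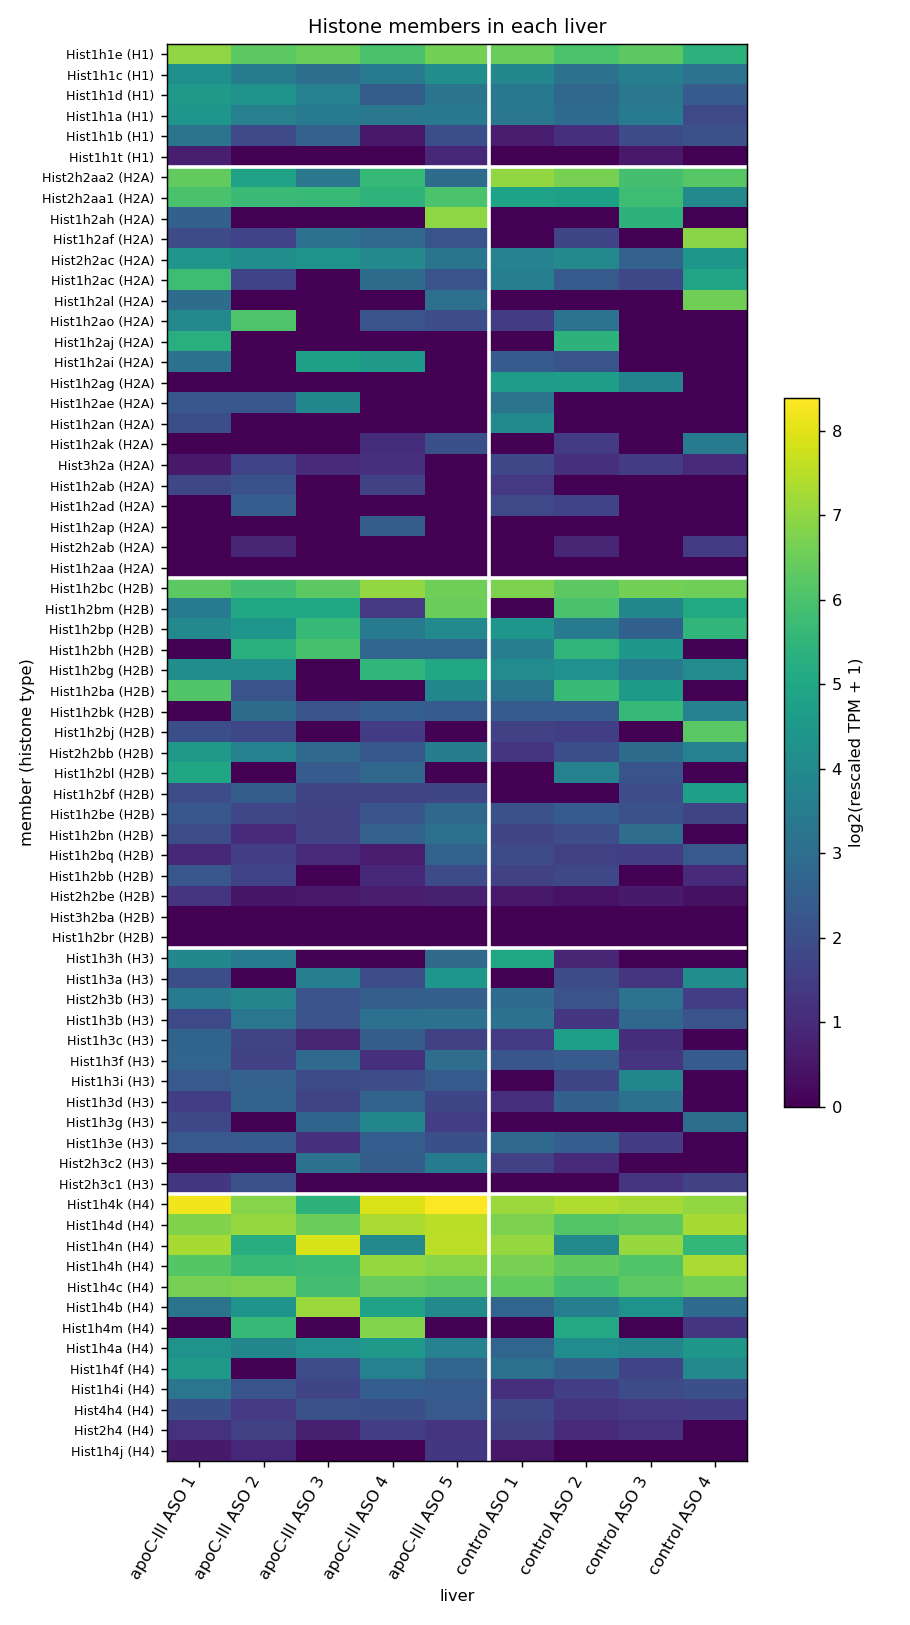
The 69 histone genes (rows, by type and falling mean level) in the 9 livers (columns), coloured by log2(rescaled TPM + 1). Bands of even colour, such as Hist1h1e, Hist1h2bc and Hist1h4d, mark genes seen in every liver, and dark cells in H2A and H2B mark genes listed at 0 in some livers.

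In all, 26 of the 69 genes were above 0 in every liver, 43 were at 0 in at least 1, and 3 were at 0 in all 9. These 3 were Hist1h2aa, the H2A of the testis, Hist3h2ba and Hist1h2br. The 69 genes lie on 4 chromosomes. Chromosome 13 held 56 of them and 956 to 1540.4 of the rescaled TPM, chromosome 3 held 10 genes and 96.5 to 199, chromosome 11 held 2 genes at or below 2.45 in sum, and chromosome 6 held Hist4h4 alone, at 1.40 to 4.06.

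Many histone genes of one type are near copies, and this bears on the values of single genes. Each transcript model was cut into words of 31 bases, and 5 genes had no word found in no other gene. The share of their words found in other histone genes was 100% for Hist2h2aa2, 89.6% for Hist2h2aa1 and 80.6% for Hist2h3b. It was only 35.4% for Hist2h3c1 and 7.98% for Hist2h2bb, whose words were mostly shared with genes outside the histone set. A low share of unique words is therefore not always due to another histone gene. Among the 23 genes with under 20% of words found in no other gene, 16 were at 0 in some liver and the median coefficient of variation was 136%. Among the 25 genes with 20 to 60%, 18 were at 0 in some liver and the median was 133%, close to that of the first class. Among the 21 genes with 60% or more, 9 were at 0 in some liver and the median was 58.8%. The median mean level was 7.91, 6.50 and 3.64 in these classes, in that order. The genes share libraries and reads, so this is a description and was not tested.

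**Figure D3:**
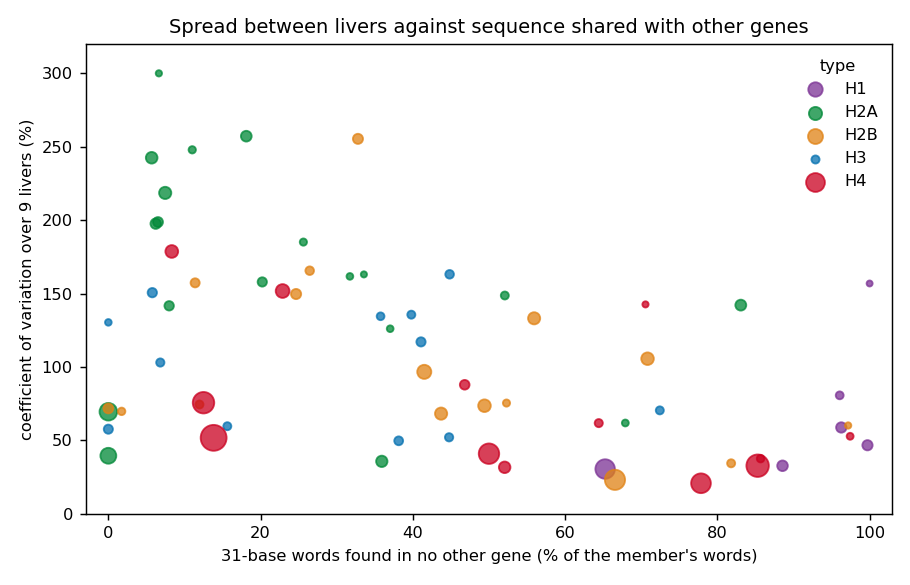
Coefficient of variation over the 9 livers (vertical axis, %) against the share of a gene's 31-base words found in no other gene (horizontal axis, %), 1 point per histone gene above 0 in some liver, coloured by type and with an area that grows with the mean level. Median values are 136% for genes with under 20% of unique words, 133% for those with 20 to 60% and 58.8% for those with 60% or more.

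The H4 genes Hist1h4m and Hist1h4n are such near copies. Hist1h4m was at 0, 47.6, 0, 113 and 0 rescaled TPM in the apoC-III ASO livers and at 0, 32.2, 0 and 1.497 in the control ASO livers. Hist1h4n was at 156, 36.6, 233, 14.4 and 184 in the former and at 133, 15.03, 134 and 46.3 in the latter. Hist1h4n was thus lowest in the livers in which Hist1h4m was above 0. Of their words, 91.7% of Hist1h4m and 85.2% of Hist1h4n were shared between them. The sum of the pair varied less than either gene, with a coefficient of variation of 48.0% against 179% and 75.7%.

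**Figure D4:**
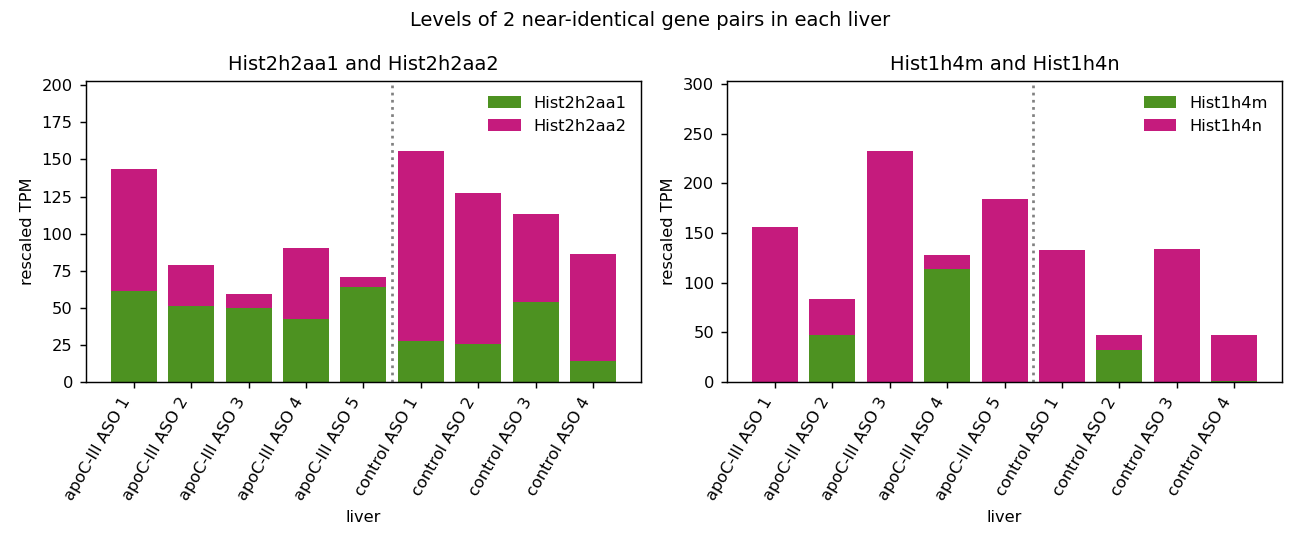
Rescaled TPM of Hist2h2aa1 and Hist2h2aa2 (left) and of Hist1h4m and Hist1h4n (right), stacked for each liver, with apoC-III ASO livers left of the dotted line. The Hist2h2aa pair sums to 59.2 to 156 and the Hist1h4 pair to 47.2 to 233, and the split within a pair changes from liver to liver.

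No histone gene was called between the groups. To be called, a gene had to change more than 1.5-fold with an adjusted p (Benjamini-Hochberg) below 0.05 in limma, fitted to log2(rescaled TPM + 1) over 11979 protein-coding genes with a mean of at least 1. Of the 69 histone genes 58 passed this filter, and 0 were called higher, against 0% of all genes tested, and 0 lower, against 0.0167%. The lowest adjusted p of a histone gene was 0.78. The fit called 2 genes in all, both lower: Apoc3 (log2 fold change -3.01 ± 0.23 SE, adjusted p = 3.87e-04) and Anpep, the gene of aminopeptidase N, which was named after its values were seen (log2 fold change -2.28 ± 0.30 SE, adjusted p = 0.0484). At an unadjusted p under 0.05, 2 histone genes were higher and 3 lower, or 3.45% and 5.17% of those tested, where all genes tested gave 2.96% and 2.57%. Among the lower ones, Hist1h2ag passed the filter through the control ASO livers alone. No histone gene had groups without overlap, which 1.83% of all genes tested had.

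Without a call, the fold changes lay more often above 0 than below it. Of the 58 genes 42 had a positive log2 fold change (72.4%) with a median of 0.35, beside 49.8% and -0.00 over all genes tested. By type this held for 5 of 5 H1 genes (median 0.60), 11 of 11 H3 genes (0.46) and 10 of 12 H4 genes (0.39), and for 8 of 15 genes of H2A (0.18) and 8 of 15 of H2B (0.07). With array weights or without control ASO replicate 4, 8 of 11 H3 genes were above 0. Near copies share reads, so the genes are not independent of one another. On the summed levels the log2 difference, apoC-III ASO minus control ASO, was 0.49 for H1, -0.38 for H2A, -0.08 for H2B, 0.24 for H3 and 0.40 for H4, and 0.17 over all 69 genes. The H2A sums include the 2 pseudogenes. The SDs of the log2 sums of the 5 types within the groups ran from 0.19 to 0.49, and the sign turned under another scaling, without 1 liver or with both for each type except H4. With TPM as deposited and control ASO replicate 4 left out, an alternative chosen after the data had been seen, the difference over all 69 genes was -0.10.

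**Figure D5:**
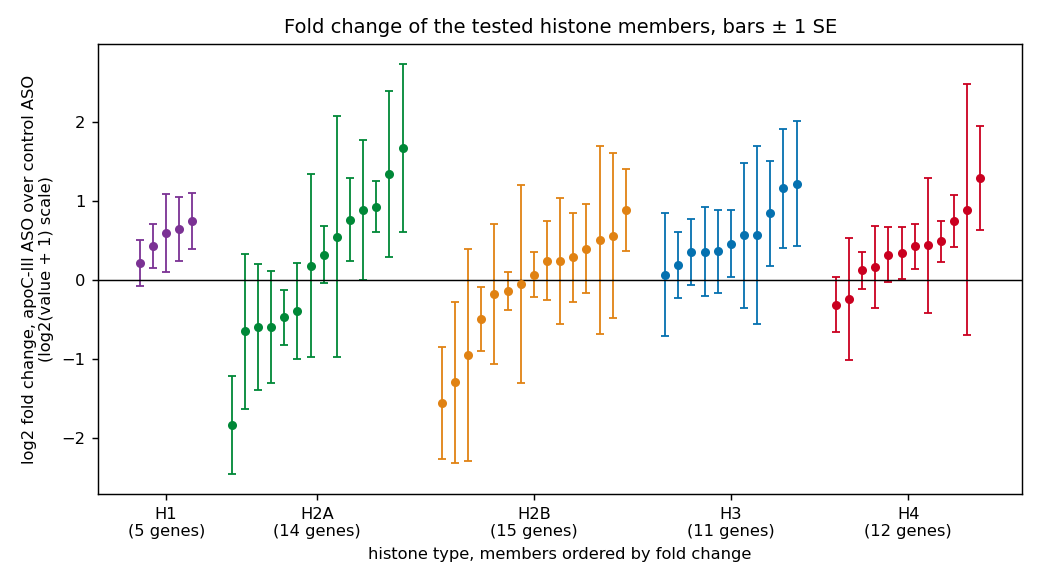
Log2 fold change (apoC-III ASO over control ASO, log2(rescaled TPM + 1) scale) of 57 tested histone genes, ordered within each type, with bars of ± 1 SE. Hist1h2ag, listed at 0 in 1 group, is left out. Points of H1 and H3 lie above 0 and those of H2A spread furthest, from -1.83 to 1.67, and none of the genes was called.

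The 5 genes with an unadjusted p under 0.05 were Hist2h2aa1, Hist2h2aa2, Hist1h2ag, Hist1h2bk and Hist1h4i. Hist2h2aa1 was at 61.4, 51.5, 50.2, 42.3 and 64.1 rescaled TPM with the apoC-III ASO and at 27.9, 26.01, 54.0 and 14.3 with the control ASO (log2 fold change 0.93 ± 0.32 SE, adjusted p = 0.863, limma). Hist2h2aa2 went the other way, at 81.8, 27.3, 9.07, 47.8 and 6.83 with the apoC-III ASO and at 128, 102, 59.5 and 72.1 with the control ASO (log2 fold change -1.83 ± 0.62 SE, adjusted p = 0.863, limma). These neighbours are each other's nearest copies, with 89.6% of the words of Hist2h2aa1 and 100% of those of Hist2h2aa2 shared, and neither has a word found in no other gene. Their stem-loop and the bases around it are the same. Summed, the pair was at 143, 78.8, 59.2, 90.1 and 70.9 with the apoC-III ASO and at 156, 128, 114 and 86.4 with the control ASO. These sums overlapped between the groups and differed by -0.49 on the log2 scale, and the share of Hist2h2aa1 in them ran from 16.5 to 90.4%.

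Hist1h2ag (ENSMUSG00000069301, chromosome 13, 22042460 to 22042944, minus strand), a further H2A gene, was listed at 0 in all 5 apoC-III ASO livers and at 23.3, 25.0, 12.6 and 0 in the control ASO livers. The fit over all genes gave it an unadjusted p of 0.00143 and an adjusted p of 0.78. Control ASO replicate 4, the control liver at 0, decided this value: without it the adjusted p was 1.05e-04 and Hist1h2ag was called lower. With array weights, which gave that liver a weight of 0.349, the adjusted p was 0.0285. Hist1h2ag passed the filter on the mean through the control ASO livers alone. No conclusion is drawn from its p-values or calls. Only 20.2% of the words of Hist1h2ag occur in no other gene. A fold against a group listed at 0 has no base and is left out. Without Hist1h2ag the median log2 fold change of the H2A genes was 0.25 (n = 14).

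Hist1h2bk, an H2B gene, was at 0, 6.82, 3.43, 4.68 and 4.15 rescaled TPM with the apoC-III ASO and at 4.47, 4.47, 47.8 and 12.1 with the control ASO (log2 fold change -1.56 ± 0.71 SE, adjusted p = 0.879, limma). The value of 47.8 in control ASO replicate 3 stood far above the rest. Hist1h4i, an H4 gene, was at 8.89, 3.50, 2.35, 4.70 and 4.23 with the apoC-III ASO and at 1.23, 1.92, 2.79 and 3.15 with the control ASO (log2 fold change 0.75 ± 0.33 SE, adjusted p = 0.879, limma).

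Histone genes often stand head to head, with a common stretch between their starts. The models gave 13 such neighbours of 1 H2A and 1 H2B gene, separated by 175 to 305 bases, and the H2B gene had the higher mean in 8 of them and the H2A gene in 5. Hist1h2bc exceeded Hist1h2ac, 250 bases away, in 9 of 9 livers (58.0 to 129 against 0 to 54.6). On chromosome 3 the order was the other way, with Hist2h2ac at 5.16 to 20.8 and Hist2h2be at 0.307 to 1.45, again in 9 of 9 livers. TPM divides by the length of the model, and a model that runs past the transcribed end lowers the level. The models of these genes are of unequal length, at 2482 bases for Hist1h2ac and 1156 for Hist1h2bc and at 520 for Hist2h2ac and 2620 for Hist2h2be. In both pairs the gene with the longer model had the lower value, and the part of model length in these orders was not tested.

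Promoters of these types differ in known elements, and 62 of the 69 genes had a RefSeq promoter of 300 bases (GRCm38.p6, 250 bases before to 50 after the start). CCAAT, searched on both strands, was found in all 6 H1, 18 H2A, 16 H2B and 10 H3 promoters but in 3 of 12 H4 promoters, and in 37.9% of all RefSeq promoters. TATAA was found in 49 of the 62 (79.0%) and in 25.5% of all promoters. The octamer ATTTGCAT, an element known from H2B promoters, was found in 7 H2A and 6 H2B promoters and in 0 of the other types. It was found in 1.75% of all promoters. Windows of head-to-head neighbours can overlap, so the same site can be counted for both genes. The octamer of Hist1h2ae and Hist1h2bg is such a site, and the counts are not of separate elements. The window of Hist2h2ac (chr3:96220831-96221130, minus strand), which reaches over the stretch shared with Hist2h2be, is shown for an H2A gene with all these elements. That of Hist1h4d (chr13:23581318-23581617, plus strand) is shown for an H4 gene without the octamer. Hist1h4d is 1 of the 3 H4 genes with CCAAT, here as ATTGG, which most H4 promoters lack. Capitals mark these elements on either strand.
Hist2h2ac: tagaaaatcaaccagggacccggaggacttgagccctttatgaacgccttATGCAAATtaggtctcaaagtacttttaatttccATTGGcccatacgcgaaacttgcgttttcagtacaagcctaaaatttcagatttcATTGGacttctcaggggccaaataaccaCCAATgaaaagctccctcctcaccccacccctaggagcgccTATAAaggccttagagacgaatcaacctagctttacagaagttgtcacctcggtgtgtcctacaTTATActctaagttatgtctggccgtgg
Hist1h4d: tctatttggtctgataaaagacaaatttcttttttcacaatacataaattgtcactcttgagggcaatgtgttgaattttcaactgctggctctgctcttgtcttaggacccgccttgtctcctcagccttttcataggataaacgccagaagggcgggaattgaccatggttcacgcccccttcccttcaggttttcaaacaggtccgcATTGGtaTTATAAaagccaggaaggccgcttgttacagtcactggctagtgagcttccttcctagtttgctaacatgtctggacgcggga

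The genes that make, cut, carry or replace these mRNAs and proteins were read beside them. In the list of histone mRNA processing and decay, 17 of 21 genes were tested and 0 were called. Its most abundant genes were Srrt, which binds the cap-binding complex (63.1 to 121 rescaled TPM), and Zcchc6, a terminal uridylyltransferase (32.2 to 62.2), and Slbp itself was at 14.7 to 35.3. Lsm1, a subunit of the LSM ring that binds uridylated histone mRNA during decay, was at 17.5, 6.66, 11.1, 22.0 and 21.4 with the apoC-III ASO and at 5.57, 7.67, 11.99 and 1.58 with the control ASO (log2 fold change 1.23 ± 0.47 SE, adjusted p = 0.875, limma). Of 19 histone chaperones 18 were tested and 0 were called or had an unadjusted p under 0.05. Atrx (266 to 422) and Npm1 (48.7 to 200.1) were the most abundant of them. Of 15 replication-independent histone genes 9 were tested and 0 were called or had an unadjusted p under 0.05. H3f3a (131 to 213) led this list, followed by H2afy, the gene of macroH2A (47.6 to 156).

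S-phase and mitotic genes mark cycling cells. Of 25 genes of DNA replication and S phase 22 were tested and 0 were called, with 13 log2 fold changes above 0 and 9 below and a median of 0.05. Pcna, the sliding clamp of DNA polymerase, was at 10.2 to 39.5 rescaled TPM. Tk1, thymidine kinase, was at 26.8, 23.7, 14.6, 23.6 and 30.5 with the apoC-III ASO and at 43.7, 38.6, 28.6 and 56.6 with the control ASO (log2 fold change -0.78 ± 0.26 SE, adjusted p = 0.863, limma). Of 15 genes of G2 and mitosis 9 were tested and 0 were called, and the list summed to 30.9, 26.03, 25.1, 31.2 and 35.5 with the apoC-III ASO and to 10.98, 16.6, 24.5 and 21.9 with the control ASO. These sums did not overlap between the groups, with 25.1 as the lowest value of the former and 24.5 as the highest of the latter. They run over all 15 genes, those below the filter included, and were not tested. Ccnb2, cyclin B2, was at 4.63, 3.77, 6.42, 8.53 and 5.17 with the apoC-III ASO and at 0.731, 1.81, 2.55 and 3.13 with the control ASO, and its groups did not overlap (log2 fold change 1.16 ± 0.31 SE, adjusted p = 0.78, limma). Mki67, the proliferation marker Ki-67, was at 1.12 to 3.41 and 0.938 to 2.03 (log2 fold change 0.62 ± 0.28 SE, adjusted p = 0.879, limma). Of the 9 genes 2, Ccnb2 and Mki67, had an unadjusted p under 0.05 (limma), both higher, and 1 had groups without overlap. Over all genes tested, 2.96% were higher and 2.57% lower at that p, and 1.83% had groups without overlap. Of the 9 log2 fold changes 6 were above 0 and 3 below.

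Erythroid markers summed to 99.5, 44.7, 81.4, 796 and 106 rescaled TPM over 5 genes with the apoC-III ASO and to 59.1, 52.2, 173 and 1861 with the control ASO. Hbb-bs, a beta-globin gene, made up most of this in the livers with the highest sums (598 and 1497). Control ASO replicate 4, which had the highest sum, was also the liver with the highest Hist1h2af, H2A and S-phase levels and the lowest H1 and H3 levels. The part of these markers in the histone values was not tested.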

How the data were processed

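RNA of 9 livers was sequenced, and the authors deposited 1 table of TPM per gene, for which the submitters' processing notes name kallisto 0.43.1 and the build GRCm38. An alignment with STAR, counts by featureCounts and a DESeq2 test stand in the methods of the paper, and counts of reads were not analysed here. kallisto divides reads among transcripts that share sequence, so values of near copies are estimates, and TPM divides by model length, which makes levels depend on where a model ends. Values under 1e-06 TPM, 21 of the 621 of the histone genes, were set to 0.

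Identifiers were matched to GENCODE M21 (51633 of 51912, and 56 more by symbol, among them 2 histone genes). TPM were scaled so that the 21820 nuclear protein-coding genes add up to 1000000 in each liver, with median-of-ratios factors from 12249 genes applied on top. Of the histone genes 67 are annotated as protein-coding, of which 58 passed the filter and entered the fit, and 2 pseudogenes, Hist1h2aj and Hist1h2al, were counted in sums only. Genes with a mean of at least 1 were tested with limma 3.58.1 in R 4.3.3 (eBayes with trend) on log2(value + 1), without covariates, and a fold change on this scale understates changes of low genes. The steps were checked on simulated data. The limma p-values set a gene's group difference against its variation between livers, moderated toward a trend over all genes tested. Apoc3 was tested by exact permutation. Type sums were not tested. Sums, sequence steps and plots were made in Python 3.11.15 with pandas 2.3.3, numpy 2.4.6 and matplotlib 3.10.9.

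The histone genes, the lists and the tests were chosen with earlier results of these data known. Genes were named by rule: the 4 highest mean levels of each type, every histone gene with an unadjusted p under 0.05, Hist1h1t, Hist1h2aa and Hist1h2ba, and genes at 0 in all livers. From each other list the rule took the 2 highest levels and up to 3 genes with the smallest unadjusted p under 0.05, and it added Apoc3, Apoe, Ndst1 and 1 marker for each cell type. Genes outside the rule, such as Hist1h4m, Hist1h4c, Hist2h2ac, Hist2h2be, Hist1h2ac, Hist4h4, Slbp, H3f3b and H1f0, were chosen after their values were seen. Alternatives were other scalings, pseudocounts and filters, other eBayes settings, array weights, a replicate block, each liver left out, a permutation test per gene and other thresholds. Replicate numbers did not pair the livers (correlations of same-numbered deviations 0.0643, 0.124, 0.0275 and 0.19).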

Additional observations from a re-analysis of the deposited data

Results flagged for a closer look

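In 78 groups of 4 or 5 livers, 10 values lay far from the rest of their group by Dixon's ratio. For normally distributed values chance alone does this in about 1 of 20 groups. Several groups here hold values of 0 beside a high one, so that rate does not carry over to them. Of the histone genes, Hist1h1a reached 20.3 rescaled TPM in apoC-III ASO replicate 1, with 11.6 as the next value. Hist1h2ah reached 122 in apoC-III ASO replicate 5, next to 5.06, and 42.2 in control ASO replicate 3, next to 0. Hist1h2af was at 119 in control ASO replicate 4, next to 2.38. Hist1h2bp was at 47.9 in apoC-III ASO replicate 3, next to 20.4. Hist1h3h was at 30.9 in control ASO replicate 1, next to 0.869, and Hist1h3a at 16.8 in control ASO replicate 4, next to 2.81. The share of 31-base words found in no other gene was 7.47% for Hist1h2ah, 5.69% for Hist1h2af, 5.77% for Hist1h3h and 99.7% for Hist1h1a.

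Of the other lists, DNA replication and S phase summed to 242 in control ASO replicate 4, with 144 as the next control value. The erythroid markers summed to 796 in apoC-III ASO replicate 4, next to 106, and to 1861 in control ASO replicate 4, next to 173.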

How the results depend on the processing

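Calls over all genes were 0 higher and 2 lower. They became 5 and 6 with TPM as deposited (4936 genes tested), and 1 and 1 with median-of-ratios factors on all TPM. Lower calls became 1 after protein-coding rescaling without factors, with a pseudocount of 5, without a filter on low values and with eBayes without a trend, and 0 with an exact permutation test per gene. That test cannot give a p below 0.00794, which is too high for a few genes among 11979 to be called after adjustment. Its 0 is therefore no check of the 2 lower calls. Leaving out each liver gave 0 higher and 1 to 3 lower. With a replicate block, in a design whose numbers do not pair the livers, there were 1 higher and 2 lower calls, and it called 0 histone genes. Histone genes called lower became 1 with array weights and 0 to 1 with each liver left out, the gene being Hist1h2ag (without control ASO replicate 4), and 0 were called higher in any alternative. Hist1h2ag passed the filter through the control ASO livers alone, so no conclusion is drawn from these calls. No alternative called a gene of the 5 other lists.

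Over all genes tested, the median fold change (log2) was -0.00, and it was 0.41 after protein-coding rescaling without factors and 0.11 with TPM as deposited. The log2 difference of summed levels then became 0.97 for H1, 0.10 for H2A, 0.40 for H2B, 0.72 for H3, 0.88 for H4 and 0.65 for all 69 genes without factors. With TPM as deposited it became 0.26 for H2B, 0.58 for H3, 0.74 for H4 and 0.51 for all. With TPM as deposited and control ASO replicate 4 left out it was -0.057 for H1, -0.23 for H3, 0.12 for H4 and -0.10 for all. With each liver left out it ran from 0.29 to 0.63 for H1, -0.55 to -0.19 for H2A, -0.25 to 0.03 for H2B, 0.11 to 0.36 for H3, 0.31 to 0.52 for H4 and 0.09 to 0.25 for all. The decrease of Apoc3 ran from 86.5 to 88.6% with each liver left out.

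Of named genes, Hist1h2bc turned to 0.072 with TPM as deposited and 0.34 without factors. Hist1h4k turned to -0.044 with array weights and -0.091 with the replicate block, and ran from -0.091 to 0.65 with each liver left out. The causes were not tested. TPM keeps no depth, so counting error could not be separated from the spread between livers.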

Other observations

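Within chromosome 13 the histone genes fall into 3 groups and 1 gene that stands apart. The 19 genes between 21715763 and 21837530 (GRCm38) summed to 597, 339.6, 395, 433 and 654 rescaled TPM with the apoC-III ASO and to 349.7, 364, 334 and 272 with the control ASO. The 5 genes between 22035164 and 22043676, which include Hist1h2ag, summed to 17.0, 12.8, 5.78, 11.2 and 130.5 and to 31.03, 33.3, 105 and 89.3. The 31 genes between 23531050 and 23934851 summed to 778, 604, 669, 766 and 749 and to 615, 572, 543 and 821. The ranges of the ASO groups overlapped in each of these groups of genes, and the positions were chosen after the data had been seen. Hist1h2al, a processed pseudogene, lies apart and was at 93.5 in control ASO replicate 4 and at or below 7.31 in the other livers.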
